A study of Mus musculus with 32 samples.

Results

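The TNF superfamily ligands and receptors were described in mouse bone marrow-derived macrophages (BMDMs) with and without the nuclear receptor Nur77, before and after activation with lipopolysaccharide (LPS). The genes were those whose symbol starts with Tnfsf or Tnfrsf, together with Tnf, Lta, Ltb, Ltbr, Fas, Fasl, Cd27 and Cd70. They came to 40 of the 25067 genes of the count table: 16 ligands, 23 receptors and Tnfsfm13, a read-through transcript that joins exons of Tnfsf12 and Tnfsf13. Each gene was read from a single RefSeq transcript, the one with most counts on average.

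TNF superfamily ligands are mostly made as trimers on the cell surface, and several, TNF among them, are also shed as soluble trimers. Their receptors signal through TRAF adaptors to NF-kB and MAP kinases, and those with a death domain, such as TNFR1, Fas and the TRAIL receptor, can also start cell death. In macrophages, LPS acting through TLR4 is a classical inducer of TNF. Several of the other ligands are known as costimulators of T cells.

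Each of the 8 groups held 4 libraries of BMDMs from C57Bl6/J mice, from wild-type littermates (BMDM-WT) or from Nur77-KO mice (BMDM-Nur77-KO), without LPS (0 h) or after 1, 5 or 18 h of 100 ng/ml LPS. The Nur77-KO animals descend from a cross of loxP-flanked Nr4a1 mice with a CMV-Cre line from which Cre was bred out, so the deletion is in the whole body and not only in macrophages, and the labels write this genotype as cre. All animals were males of 6 to 12 weeks, and all marrow cells, of both genotypes, were cultured for 7 days with L929-conditioned medium. The comparisons ask how Nur77 bears on the inflammatory response of macrophages. Cells were seeded in 4 replicates, and the sources used here do not say that these came from separate mice, so the p-values measure the spread between these libraries, which may be technical.

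Total counts were 8742362 to 15780926 per library, with a median of 11847140. Levels are given as CPM (counts scaled to the library's size with TMM factors), and levels of different genes were compared only as RPKM, which also divides by transcript length. Nr4a1, the gene for Nur77, was at 19.8 ± 4.4 CPM (SD, n = 4) in unstimulated BMDM-WT against 5.27 ± 1.2 CPM in unstimulated BMDM-Nur77-KO. At 1 h the means were 438 ± 60 and 191 ± 40 CPM, so transcript counts of the deleted gene were lower but not absent. The 6 macrophage markers were present in all libraries, with summed levels of 9607 to 18237 CPM. The lists of other cells were summed at 0 to 0.995 CPM for NK cells, 1.54 to 4.78 for B cells, 0 to 0.325 for mast cells or basophils (no library above 3 counts for any of the 4 genes), 0.261 to 4.12 for fibroblasts, 9.6 to 30.8 for neutrophils, 12.3 to 49 for T cells, 0.766 to 22 for dendritic cells and 1.43 to 36.2 for endothelial cells. BMDM-Nur77-KO replicate 1 at 5 h stood apart, with a median absolute log2 distance of 0.491 from its group, and the next was BMDM-Nur77-KO replicate 4 at 18 h with 0.349. For the superfamily genes described by library, genotype differences at 5 and 18 h are also given without these replicates.

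Of the 40 genes, 28 exceeded a mean of 1 RPKM in 1 group or more and were tested: 12 ligands, 15 receptors and Tnfsfm13. Several known pairs were thereby split. Tnfsf15, Tnfsf18 and Tnfsf4 passed, whereas their receptors Tnfrsf25, Tnfrsf18 and Tnfrsf4 did not. The reverse held for Fas and its ligand Fasl, and for Tnfrsf11a (RANK), whose ligand Tnfsf11 had 0 counts in all 32 libraries. A floor of 3 counts corresponded to 0.156 to 0.366 CPM, depending on the library. Cd27, Cd70, Tnfrsf11b, Tnfrsf13c, Tnfrsf17, Tnfrsf19 and Tnfsf13b made up the rest of the 12 genes not tested, none of which exceeded a group mean of 0.434 RPKM. Tnfsf13b, which encodes the B cell survival factor BAFF, reached 34 counts in a library, and the other 11 at most 9. The genes nearest the limit on the tested side were Ltb, with a highest group mean of 1.07 RPKM, and Lta, with 1.46.

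In unstimulated BMDM-WT, the highest level per length was that of Tnfrsf1b, which encodes TNFR2, with 127 ± 13.9 RPKM (SD, n = 4). Its range did not overlap that of the next gene. Tnfsf12 (TWEAK) followed with 67.6 ± 6.97 RPKM and Tnfrsf1a (TNFR1) with 55.4 ± 4.22, and these neighbours overlapped. Next stood Tnfsfm13 with 50.3 RPKM, which overlapped Tnfrsf1a, and below it, without overlap, Tnfrsf13b (TACI, a receptor for BAFF and APRIL) with 41.7 and Tnfrsf11a with 34.6. Tnfsf13 (APRIL) with 26, Tnf with 24.9 and Ltbr with 19.5 overlapped their neighbours. The transcripts of Tnfsf12, Tnfsf13 and Tnfsfm13 share exons and cannot be separated in such counts, so these levels are uncertain. At 5 h of LPS, Tnf led with 805 ± 10.3 RPKM, ahead of Tnfrsf1b with 640 ± 20.6, without overlap, and Tnfsf15 (149.8 ± 20.4) overlapped Tnfrsf1a (135.3 ± 2.1). At 18 h, Tnfrsf1b was again highest, with 1079 ± 47.9 RPKM.

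Many of these genes are clustered in the mouse genome (GRCm38). Tnf lies on chromosome 17 at 1158 bases from Lta and 3062 bases from Ltb, Tnfsf15 and Tnfsf8 are neighbours on chromosome 4 with 86143 bases between them, and Tnfsf4 and Tnfsf18 are neighbours on chromosome 1 with 76451 bases between them. RefSeq promoters of 300 bases (250 before and 50 after the start, GRCm38.p6) were found for 32 of the 40 genes, 36 promoters in all, and not for Cd70, Tnfrsf10b, Tnfrsf11b, Tnfrsf22, Tnfrsf26, Tnfsf12, Tnfsf4 and Tnfsf9. They were searched on both strands for a kB motif (GGGA, any 4 bases, then CC), TGANTCA (an AP-1 motif) and AAAGGTCA (the NBRE, the element that Nur77 binds as a monomer), none of which contains another. The kB letters were in 9 of the 36 promoters (25%), against 20.7% of all 32851 promoters of the table. The AP-1 letters were in 7 (19.4%), against 7.81%, but in only 6 genes, since the 2 windows of Tnfsf13b overlap and hold the same match, and the NBRE in 0, against 1.51%. Tnfsf14, Tnfrsf8 and Tnfrsf9 were the genes with a kB and an AP-1 match in the same promoter. Their 250 bases before the start are shown with those of Tnf, the founding ligand, and of Tnfsf15, called between the genotypes at all 4 times. For Tnfrsf9, the promoter shown was picked for its matches and lies 7844 bases from the gene's start. The Tnfrsf9 promoter at the gene's start held neither motif. Capitals mark the kB and AP-1 matches, and the positions in the text count bases before the start to the first base of a match.
Tnfsf14, chr17:57194182-57194431, minus strand, kB at 51 and AP-1 at 160: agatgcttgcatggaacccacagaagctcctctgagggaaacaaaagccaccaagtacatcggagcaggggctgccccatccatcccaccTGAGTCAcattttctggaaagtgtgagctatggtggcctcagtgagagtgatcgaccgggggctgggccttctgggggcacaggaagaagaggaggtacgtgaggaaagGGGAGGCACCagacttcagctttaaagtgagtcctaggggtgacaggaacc
Tnfrsf8, chr4:145315165-145315414, minus strand, kB at 167 and AP-1 at 132: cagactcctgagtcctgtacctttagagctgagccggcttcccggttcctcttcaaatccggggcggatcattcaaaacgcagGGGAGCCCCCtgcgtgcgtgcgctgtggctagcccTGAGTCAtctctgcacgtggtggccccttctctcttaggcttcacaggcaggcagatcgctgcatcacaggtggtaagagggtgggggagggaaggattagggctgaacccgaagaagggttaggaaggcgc
Tnfrsf9, the second of 2 promoters, chr4:150927749-150927998, plus strand, kB at 42 and AP-1 at 15: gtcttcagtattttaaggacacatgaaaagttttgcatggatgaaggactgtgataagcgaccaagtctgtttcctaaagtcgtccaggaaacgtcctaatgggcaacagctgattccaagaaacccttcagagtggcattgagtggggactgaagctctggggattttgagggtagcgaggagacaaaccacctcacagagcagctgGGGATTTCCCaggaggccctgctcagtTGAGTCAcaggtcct
Tnf, chr17:35202008-35202257, minus strand, no match before the start: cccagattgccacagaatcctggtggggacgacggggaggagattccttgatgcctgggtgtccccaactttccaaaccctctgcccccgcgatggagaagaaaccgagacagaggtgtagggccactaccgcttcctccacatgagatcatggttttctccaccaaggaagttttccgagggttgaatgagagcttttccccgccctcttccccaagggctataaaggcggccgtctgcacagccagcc
Tnfsf15, chr4:63745060-63745309, minus strand, no match: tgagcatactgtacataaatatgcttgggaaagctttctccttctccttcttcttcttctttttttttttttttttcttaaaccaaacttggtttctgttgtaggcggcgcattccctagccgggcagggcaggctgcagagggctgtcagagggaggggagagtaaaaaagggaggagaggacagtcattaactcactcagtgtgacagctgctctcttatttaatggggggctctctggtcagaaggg
The kB match of Tnf lay after the start, at base 30. These matches are letters in a window and do not show binding.

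The response to LPS in BMDM-WT was carried first by ligands. At 1 h, 7 of the 28 genes rose by more than 2-fold and 0 fell, against 3.44% and 1.66% of the 11186 genes tested. Of these, 6 were ligands (Tnf, Tnfsf9, Tnfsf4, Tnfsf15, Tnfsf14 and Tnfsf18) and 1 a receptor, Tnfrsf8. At 5 h, 15 rose and 4 fell, against 15.9% and 17.8%, and the median log2 change of the 28 genes was 1.20 against -0.14 for all genes. At 18 h, 10 rose and 8 fell, against 13.3% and 14.1%, with a median of 0.34 against -0.00. Tnfsf12, Tnfsf13 and Tnfsfm13, which share exons and cannot be separated in such counts, are counted as separate genes among these 8 falls. The same holds for the falls in BMDM-Nur77-KO at 18 h and from 5 to 18 h. In all, 22 genes passed at some time, and Ltbr, Tnfrsf10b, Tnfrsf11a, Tnfrsf13b, Tnfrsf23 and Tnfrsf26, all receptors, did not. A gene was called where the adjusted p was under 0.05 and the log2 value above 1 or below -1. Tnfsf4, Tnfsf10, Tnfsf14, Tnfsf18, Tnfrsf8, Tnfrsf9, Lta and Ltb had means under 1 RPKM at 0 h in both genotypes. They were tested only through groups with LPS, so the filter favoured rises of these genes, here and in BMDM-Nur77-KO. Ltb exceeded 1 RPKM only in BMDM-Nur77-KO at 18 h (1.07 RPKM, against 0.522 in BMDM-WT). It is counted there among the rises at 18 h and from 5 to 18 h. All other genes tested passed the same filter, but how many of them entered only through groups with LPS was not counted. The shares and medians of all genes are therefore no matched comparison. Among the rises in BMDM-WT that the filter favoured were Tnfsf4, Tnfsf14, Tnfsf18 and Tnfrsf8 at 1 h. At 5 h they were Tnfsf4, Tnfsf10, Tnfsf18, Tnfrsf8, Tnfrsf9, Lta and Ltb. Lists of other cells moved with LPS too. From 0 to 5 h in BMDM-WT, the summed T cell list went from 13.9 to 22.2 CPM to 37.4 to 43.1 CPM, the dendritic cell list from 0.766 to 1.51 to 11.9 to 16.7, the endothelial list from 2.37 to 2.99 to 20.7 to 23.9, the neutrophil list from 9.6 to 17.9 to 22.6 to 28.9 and the fibroblast list from 0.261 to 0.437 to 3.32 to 3.66. Tek of the endothelial, Ly6g and Elane of the neutrophil and Col1a2 and Col3a1 of the fibroblast list were at or under 3 counts in every library. The part of these cells in the results was not tested. In bulk samples fewer expressing cells and less RNA per cell cannot be told apart.

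Tnf itself, the founding ligand of the family, was at 44.1, 38.6, 36.4 and 44.1 CPM at 0 h in BMDM-WT and at 3726, 3697, 3732 and 3804 CPM at 1 h. All stimulated libraries lay far above the unstimulated ones, and the replicates at 1 h were close to each other. The change was 91.6-fold (log2 6.52 ± 0.16 SE, adjusted p = 6.8e-25). Levels were 1302 to 1342 CPM at 5 h and 254 to 294 CPM at 18 h, a fall of 2.25 on the log2 scale between these times (adjusted p = 8.6e-16).

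Tnfsf9, the ligand of the costimulatory receptor CD137, had the largest change at 1 h. It went from 3.06, 3.86, 2.58 and 3.35 CPM to 815, 773, 649 and 684 CPM, 224-fold (log2 7.81 ± 0.15, adjusted p = 7.6e-27). The peak was brief: the libraries were at 21.9 to 32.5 CPM at 5 h and 3.48 to 4.86 CPM at 18 h, where the groups at 18 h and 0 h overlapped. Its receptor Tnfrsf9 had at most 3 counts per library at 0 h and 44 to 52 counts at 5 h, at least 26.2-fold higher when set against 3 counts per library.

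Tnfsf4 (OX40 ligand) rose with it and kept rising. Its libraries were at 0.306, 0.417, 0.456 and 0.728 CPM at 0 h, 32.3, 27.5, 27.7 and 37.2 CPM at 1 h, and 178, 161, 182 and 205 CPM at 5 h. With 375-fold at 5 h (log2 8.55 ± 0.20, adjusted p = 1.5e-25), it had the largest change of any of the 28 genes at that time. At 18 h it had fallen to 1.83 to 3.81 CPM, by 6.02 on the log2 scale from 5 h (adjusted p = 2.3e-23). Counts at 0 h were only 4 to 10 per library, so the size of the fold change is less certain than its direction.

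Tnfsf15 (TL1A) and Tnfsf10 (TRAIL) were late ligands by comparison. Tnfsf15 was at 3.52, 4.07, 3.27 and 4.95 CPM at 0 h, 8.83, 7.9, 14.8 and 15 CPM at 1 h, and 469, 431, 516 and 590 CPM at 5 h, 126-fold above 0 h (log2 6.98 ± 0.23, adjusted p = 4.9e-22). Tnfsf10 stayed at 1.83 to 2.14 CPM at 1 h, within its range at 0 h (1.68 to 2.96), and reached 350, 309, 337 and 375 CPM at 5 h, 161-fold (log2 7.33 ± 0.19, adjusted p = 9.0e-25). At 18 h, both remained above 0 h, at 32.2 to 46.2 CPM and 83.9 to 128 CPM, and no library overlapped.

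Smaller ligand signals differed in their timing. Tnfsf8 (CD30 ligand) rose at 5 h, from 7.2, 11.4, 8.05 and 7.58 CPM to 51.4, 43.6, 40.9 and 49.1 CPM (log2 2.42 ± 0.15, adjusted p = 7.0e-15), and fell below its starting level at 18 h, to 2.01, 2.29, 2.43 and 2.33 CPM (log2 -1.92 ± 0.20, adjusted p = 6.5e-10). Tnfsf18 (GITR ligand), at lower levels, was also highest at 5 h, but it was already called higher at 1 h. It was at 0.521 to 0.911 CPM at 0 h, 1.54 to 3.24 at 1 h and 5.08 to 6.01 at 5 h. At 18 h it was at 0 to 0.348 CPM, where its 4 libraries held 1, 0, 4 and 0 counts. Tnfsf14 (LIGHT) had its highest levels at 1 h, with 1.07 to 1.89 CPM at 0 h, 4.49 to 6.27 at 1 h and 0.111 to 0.731 at 5 h (log2 1.83 ± 0.26 at 1 h and -1.74 ± 0.43 at 5 h, adjusted p = 2.0e-06 and 5.9e-04). Lta and Ltb, which form lymphotoxin, rose at 5 h but stayed low, at 0.731 to 3.3 and 0.471 to 0.975 CPM, and the libraries of Ltb overlapped those at 0 h (0.146 to 0.532 CPM).

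The constitutive ligands went the other way. Tnfsf12 was at 84.2, 109, 97.3 and 97.9 CPM at 0 h and 43.8, 45.6, 46.2 and 39.5 CPM at 5 h (log2 -1.15 ± 0.14, adjusted p = 9.1e-09). Tnfsf13 fell by 1.70 on the log2 scale at 18 h (adjusted p = 6.9e-14), and Tnfsfm13, with which both share exons, by 1.57.

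Among the receptors, Tnfrsf1b was higher at each later time. Its level in BMDM-WT was 414 to 536 CPM at 0 h, 621 to 725 CPM at 1 h, 2362 to 2540 CPM at 5 h and 3861 to 4256 CPM at 18 h (log2 3.09 ± 0.11 at 18 h, adjusted p = 2.5e-21), with no overlap between times. Tnfrsf1a reached 288 to 297 CPM at 5 h from 108 to 128 CPM (log2 1.29 ± 0.12, adjusted p = 4.8e-11). Fas was at 4.14, 4.07, 5.01 and 3.21 CPM at 0 h and 75.5, 67.7, 65.6 and 76.1 CPM at 5 h, 17.3-fold (log2 4.12 ± 0.16, adjusted p = 3.0e-20). Tnfrsf8 (CD30) rose 13.7-fold at 5 h, and Tnfrsf14 (HVEM, a receptor of LIGHT) went from 8.66 to 10.9 CPM at 0 h to 19.3 to 24.6 at 5 h and 39.8 to 56.6 at 18 h.

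Other receptors fell. Tnfrsf21 (DR6, a death domain receptor) dropped from 37.3, 30.6, 44.5 and 37.9 CPM to 12.1, 12.1, 11.7 and 10.8 CPM at 5 h (log2 -1.68 ± 0.10, adjusted p = 9.0e-16) and was at 46.6 to 55.6 CPM at 18 h. Tnfrsf22, a decoy receptor for TRAIL, fell by 1.34 on the log2 scale at 5 h and by 1.74 at 18 h (adjusted p = 3.7e-07 and 3.2e-09). Tnfrsf12a (Fn14, the receptor of TWEAK) was at 4.02 to 5.89 CPM at 5 h, overlapping its range at 0 h (3.57 to 5.63), and at 1.04 to 1.9 CPM at 18 h (log2 -1.79 ± 0.31, adjusted p = 8.5e-06).

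**Figure D1:**
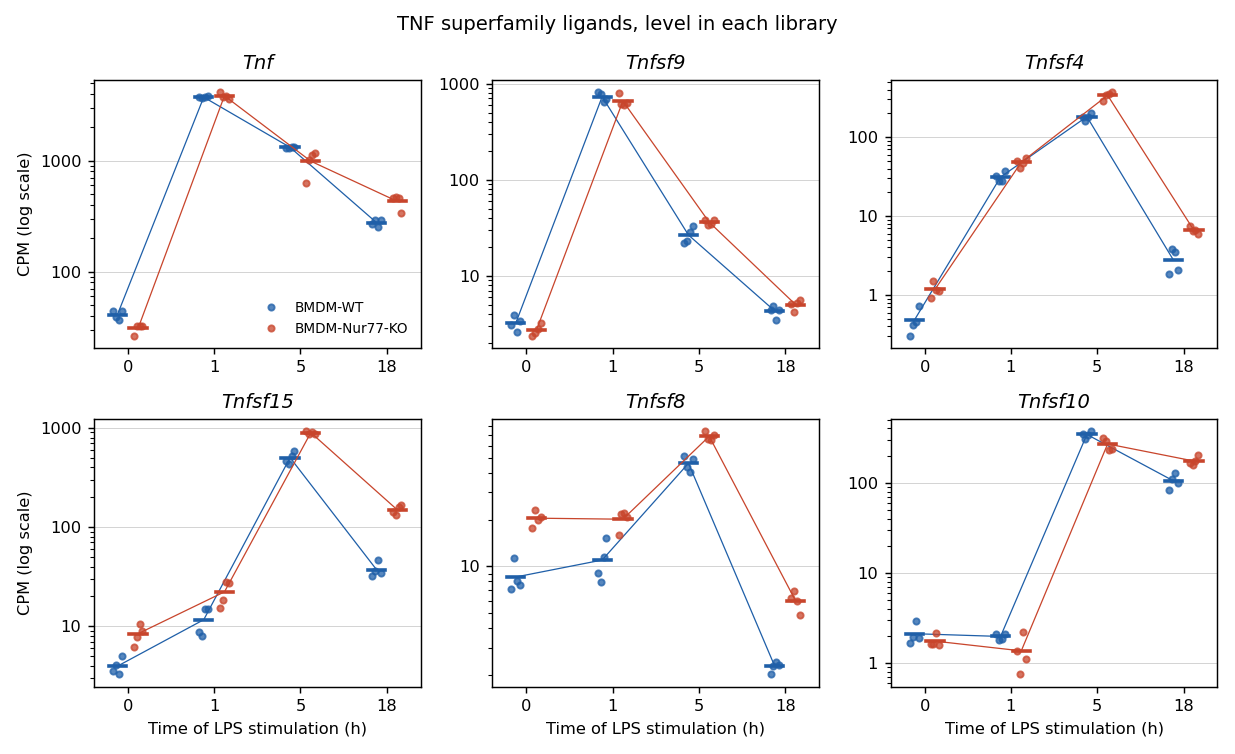
Level of 6 ligands in CPM (log axis) against the time of LPS stimulation (h). Each point is 1 library, short bars are means of 4 libraries and thin lines join the means (blue, BMDM-WT and red, BMDM-Nur77-KO). Tnf and Tnfsf9 peak at 1 h in both genotypes, Tnfsf4, Tnfsf15, Tnfsf8 and Tnfsf10 at 5 h. The red points of Tnfsf4, Tnfsf15 and Tnfsf8 lie above the blue ones at every time.

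In BMDM-Nur77-KO, LPS raised 7 genes at 1 h and lowered 0 (3.25% and 1.27% of all genes), raised 14 and lowered 3 at 5 h (16.2% and 16.4%), and raised 11 and lowered 10 at 18 h (15.7% and 16.3%). The time with the highest mean was the same as in BMDM-WT for 22 of the 28 genes. From 5 to 18 h, 2 genes rose and 10 fell in BMDM-WT (15.8% and 14.3% of all genes), and 4 rose and 11 fell in BMDM-Nur77-KO (14.3% and 14.4%). Most genes that fell were ligands, 8 in BMDM-WT and 9 in BMDM-Nur77-KO. Without BMDM-Nur77-KO replicate 1 at 5 h, 13 instead of 15 genes passed between 5 and 18 h. Some of these calls in BMDM-Nur77-KO lay close to the limit on the fold change and were lost without a library. Among them were Tnfrsf12a at 5 h (without replicate 4 at 0 h, -0.97, or replicate 1 at 5 h, -0.83) and at 18 h (without replicate 1 or 4 at 0 h or replicate 4 at 18 h, -0.74 in the last case), Tnfrsf14 at 5 h (without replicate 1 at 0 h, 0.87, or replicate 4 at 5 h, 0.93) and Tnfrsf26 at 5 h (without replicate 4 at 5 h, -0.99). Between 5 and 18 h they included Ltb (without replicate 1 at 5 h, 0.80), Tnfrsf22 (without replicate 3 at 5 h, or 1 or 3 at 18 h, -0.89 to -0.86), and Tnfsf12 (without replicate 1 at 5 h, or 1 or 2 at 18 h, -0.99 to -0.86).

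**Figure D2:**
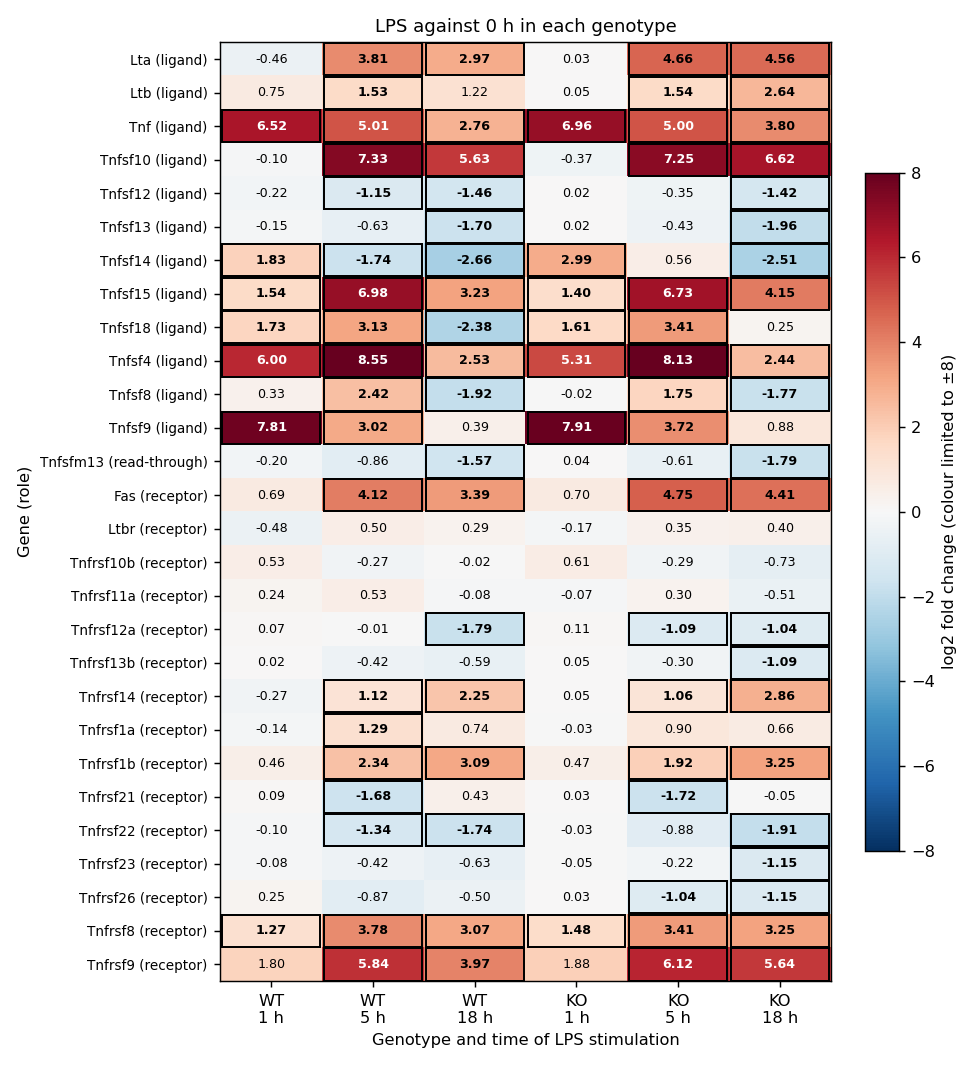
Log2 fold change of each of the 28 tested genes at 1, 5 and 18 h of LPS against 0 h, in BMDM-WT (left 3 columns) and BMDM-Nur77-KO (right 3 columns). Boxes with bold values mark calls (adjusted p under 0.05, size over 1). Ligands fill most of the boxes at 1 h. Fitted values of Tnfrsf9, Lta and Tnfsf14 in columns with a group at or under 3 counts per library depend on the prior count and are no measure of size. The value of Tnfsf18 at 18 h in BMDM-WT rests on a group near this floor.

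Between the genotypes, the genes that were higher in BMDM-Nur77-KO were mostly ligands, 7 of 9 over the 4 times, and those that were lower mostly receptors, 4 of 5. Calls between genotypes needed an adjusted p under 0.05 and a log2 value beyond 0.58 in size. Before stimulation, BMDM-Nur77-KO had 4 of the 28 genes higher and 1 lower, against 2.36% and 2.38% of all genes. At 1 h, 4 were higher and 0 lower (1.48% and 1.36%), at 5 h 5 were higher and 3 lower (5.66% and 3.13%), and at 18 h 8 were higher and 1 lower (5.76% and 4.17%). Counted by libraries that do not overlap, 6 genes were higher and 4 lower at 0 h (10.1% and 12.6% of all genes), 5 and 1 at 1 h (10.2% and 9.23%), 7 and 7 at 5 h (9.04% and 9.92%), and 8 genes were higher and 2 lower at 18 h (10.8% and 10.3%). Median log2 differences of the 28 genes were -0.08, 0.04, 0.17 and 0.07 at the 4 times, and those of all genes -0.03, -0.00, 0.02 and -0.01. Without BMDM-Nur77-KO replicate 1, 6 genes passed at 5 h, and without BMDM-Nur77-KO replicate 4, 10 passed at 18 h. Marker lists also differed before and early after LPS. The endothelial list was summed at 2.37 to 2.99 CPM in BMDM-WT and 1.52 to 2.1 in BMDM-Nur77-KO without LPS. At 1 h it was at 2.82 to 3.49 and 1.43 to 2.23 CPM, with 1 of its 2 tested genes lower at both times. The neutrophil list was at 18 to 23.8 and 24 to 29.6 CPM at 1 h and had 1 of 2 tested genes higher at 0 h, and the 1 tested B cell gene was lower at 0 h. Their part in the results was not tested. In all, 14 genes were called at some time, and Tnfrsf10b, Tnfsf15 and Tnfsf4 were called at all 4 times.

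**Figure D3:**
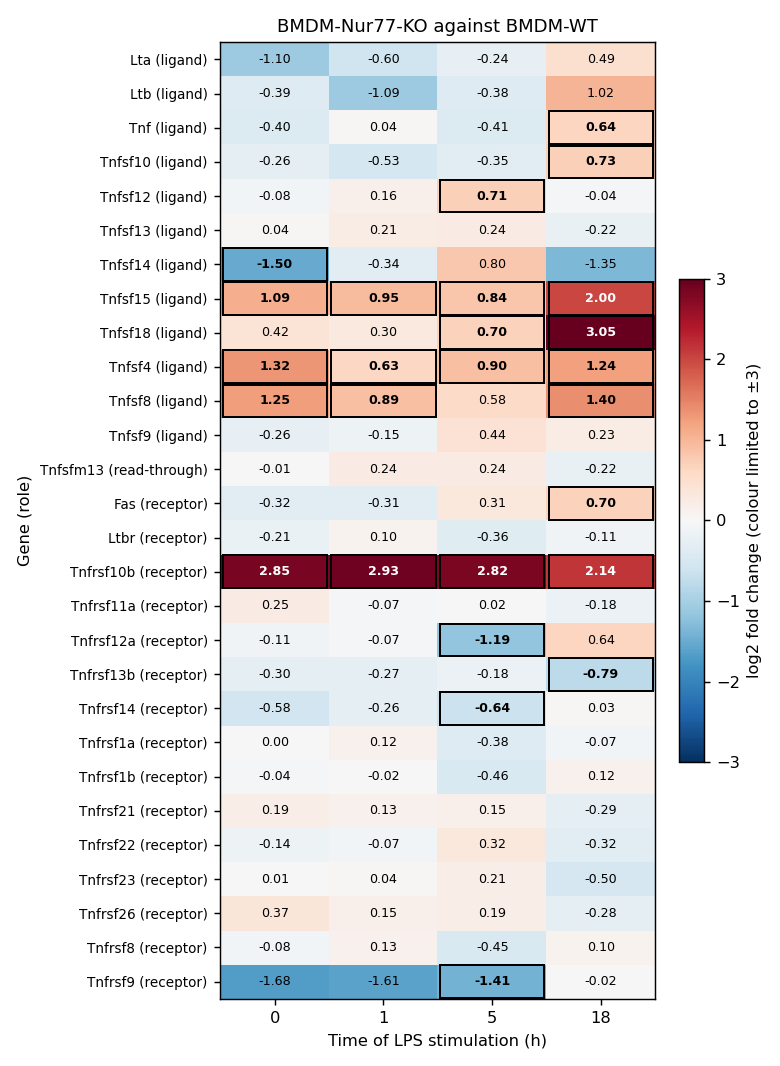
Log2 fold change of BMDM-Nur77-KO against BMDM-WT for the 28 tested genes (rows, with their role) at 0, 1, 5 and 18 h of LPS (columns). Boxes with bold values mark calls (adjusted p under 0.05, size over 0.58). Tnfrsf10b is between 2.14 and 2.93 in all columns, and boxes cluster on Tnfsf15, Tnfsf18, Tnfsf4 and Tnfsf8. Values of Tnfrsf9 at 0 and 1 h, Lta at 0 and 1 h and Tnfsf14 and Tnfsf18 at 18 h rest on groups at or near the floor of 3 counts.

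The receptor with the largest genotype difference was Tnfrsf10b, which encodes DR5, the death receptor for TRAIL in the mouse. Before stimulation its level was 2.45, 1.72, 1.67 and 4.15 CPM in BMDM-WT and 17.5, 16.1, 19.4 and 18.1 CPM in BMDM-Nur77-KO. All BMDM-Nur77-KO libraries were above all BMDM-WT libraries, here and at each later time. The difference was 7.19-fold at 0 h (log2 2.85 ± 0.20 SE, adjusted p = 1.2e-11), 7.61-fold at 1 h (2.93 ± 0.19, 2.5e-12), 7.08-fold at 5 h (2.82 ± 0.23, 2.1e-10) and 4.41-fold at 18 h (2.14 ± 0.22, 6.2e-09). Without the replicates that stood apart, the log2 values were 2.76 at 5 h and 2.06 at 18 h. At 18 h the libraries were at 3.48, 2.29, 1.56 and 2.42 CPM and 10, 10.5, 10.1 and 12.4 CPM. LPS did not move Tnfrsf10b past the limit at any time in either genotype, and the test for a genotype difference in its response to LPS did not pass (adjusted p = 0.911, 0.990 and 0.163 at 1, 5 and 18 h). At 18 h this depended on BMDM-WT replicate 4 at 0 h, without which the difference in the response of Tnfrsf10b was -1.06 instead of -0.71 (adjusted p = 0.012). Its neighbours on chromosome 14, Chmp7 and Rhobtb2, were at 0.08 and 0.16 on the log2 scale at 0 h (adjusted p = 0.598 and 0.513). Chmp7 was at 0.34, 0.12 and 0.29 at 1, 5 and 18 h (adjusted p = 0.022, 0.358 and 0.024), and Rhobtb2, 579 bases away, at 0.37, -1.28 and -0.44 (adjusted p = 0.201, 4.4e-05 and 0.040).

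Tnfsf15, a costimulator of T cells through DR3, was called at all 4 times, as was Tnfsf4 below. It was at 3.52, 4.07, 3.27 and 4.95 CPM in BMDM-WT and 6.21, 7.87, 10.6 and 8.95 CPM in BMDM-Nur77-KO at 0 h (log2 1.09 ± 0.23, adjusted p = 0.0012). At 5 h the values were 469, 431, 516 and 590 against 933, 873, 919 and 862 CPM (0.84 ± 0.17, 6.8e-04), and at 18 h they were 32.2, 36.2, 46.2 and 34.7 against 142, 133, 158 and 166 CPM (2.00 ± 0.18, 5.5e-10). Groups were apart at all 4 times, and without the replicates that stood apart the values were 0.82 at 5 h and 1.95 at 18 h. The 4.01-fold difference at 18 h came with a smaller fall after 5 h, 5.99-fold in BMDM-Nur77-KO against 13.4-fold in BMDM-WT, and this fall differed between the genotypes (log2 1.17 ± 0.24, adjusted p = 0.0010, and 1.18 without BMDM-Nur77-KO replicate 1 at 5 h).

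Its chromosomal neighbour Tnfsf8 showed the same direction. At 0 h it was at 7.2, 11.4, 8.05 and 7.58 CPM in BMDM-WT and 17.7, 23.2, 20 and 20.9 CPM in BMDM-Nur77-KO (log2 1.25 ± 0.15, adjusted p = 8.4e-07). The difference was 0.89 ± 0.15 at 1 h (1.8e-04) and 1.40 ± 0.21 at 18 h (6.5e-06), where 2.01 to 2.43 CPM stood against 4.89 to 6.94. At 5 h it was 0.58 ± 0.14 (adjusted p = 0.0037), with 40.9 to 51.4 against 64.9 to 74.8 CPM, which did not overlap but stayed just under the limit on the fold change. It passed this limit with DESeq2 and with DESeq2's size factors in edgeR (both 0.60), and without BMDM-Nur77-KO replicate 2 or 3 or BMDM-WT replicate 1 or 4 (0.60 to 0.63), but not without BMDM-Nur77-KO replicate 1 (0.54). At 18 h the value of Tnfsf8 was 1.48 without BMDM-Nur77-KO replicate 4. Tnc, which encodes tenascin-C and is the next tested gene beyond Tnfsf8 at 98277 bases, was also higher, with log2 values of 1.30, 0.99, 0.54 and 1.58 at 0, 1, 5 and 18 h (adjusted p = 1.9e-05, 7.5e-04, 0.022 and 0.0018). Tmem268, on the other side of Tnfsf15, had log2 values of 0.18, 0.23, 0.32 and 0.09 (adjusted p = 0.192, 0.190, 0.0095 and 0.477).

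A second neighbouring pair, Tnfsf4 and Tnfsf18, was also higher in BMDM-Nur77-KO. Tnfsf4 was at 0.306, 0.417, 0.456 and 0.728 CPM against 0.914, 1.52, 1.15 and 1.12 CPM at 0 h (log2 1.32 ± 0.32, adjusted p = 0.0050). At 5 h it was at 178, 161, 182 and 205 against 290, 337, 354 and 371 CPM (0.90 ± 0.12, 3.0e-06), and at 18 h at 1.83, 3.81, 3.48 and 2.07 against 7.42, 6.49, 6.57 and 5.87 CPM (1.24 ± 0.18, 5.2e-06). No libraries overlapped at any of these times, and without the replicates that stood apart the values were 0.97 at 5 h and 1.29 at 18 h. At 1 h the log2 value was 0.63 ± 0.13 (adjusted p = 0.0012), and it fell to 0.57 without BMDM-Nur77-KO replicate 4, BMDM-WT replicate 2 or BMDM-WT replicate 3, under the limit.

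Tnfsf18 was at 6, 5.24, 5.08 and 6.01 CPM in BMDM-WT and 8.13, 8.03, 10.3 and 9.79 CPM in BMDM-Nur77-KO at 5 h (log2 0.70 ± 0.21, adjusted p = 0.018), and without BMDM-WT replicate 3 the adjusted p was 0.052. Without BMDM-Nur77-KO replicate 1 the value was 0.74. At 18 h, the 1, 0, 4 and 0 counts of BMDM-WT stood against 18, 7, 14 and 10 counts (3.05 ± 0.54, adjusted p = 7.4e-05), and without the library with 4 counts the fitted value was 4.64. It was 3.13 without BMDM-Nur77-KO replicate 4. At 0 and 1 h the groups overlapped.

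For Tnf the genotypes differed in direction with time. Levels in BMDM-Nur77-KO were 26.5, 32.6, 32 and 32.3 CPM at 0 h, all under the BMDM-WT libraries, but the difference did not reach the limit (log2 -0.40 ± 0.13, adjusted p = 0.039). At 1 h the groups overlapped, with 3610 to 4153 CPM in BMDM-Nur77-KO (0.04, adjusted p = 0.926). At 5 h the 4 libraries were at 631, 1023, 1129 and 1177 CPM, below BMDM-WT (-0.41 ± 0.12, 0.016), and the lowest was the replicate that stood apart. Without it the difference was -0.25 (adjusted p = 0.064). At 18 h they were at 460, 468, 459 and 336 CPM against 270, 290, 254 and 294 CPM, 1.56-fold higher with no overlap (0.64 ± 0.12, 2.3e-04). The value was 0.74 without replicate 4. Between 5 and 18 h Tnf fell 2.30-fold in BMDM-Nur77-KO and 4.76-fold in BMDM-WT, a difference of 1.05 ± 0.17 on the log2 scale (adjusted p = 6.4e-05), and 0.89 without BMDM-Nur77-KO replicate 1 at 5 h.

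TRAIL and Fas, a ligand and a receptor of cell death, shared the late difference. Tnfsf10 was at 83.9, 109, 128 and 100 CPM in BMDM-WT and 165, 155, 172 and 203 CPM in BMDM-Nur77-KO at 18 h (log2 0.73 ± 0.13, adjusted p = 9.5e-05). Fas was at 41, 41.9, 46.9 and 42.4 against 66.5, 68.3, 62.8 and 81.4 CPM (0.70 ± 0.13, 1.6e-04). Neither overlapped, and without replicate 4 of BMDM-Nur77-KO the values were 0.64 and 0.61. At 5 h the 2 genes had log2 values of -0.35 and 0.31, neither of which reached the limit, and -0.43 and 0.16 without BMDM-Nur77-KO replicate 1. The response to LPS at 18 h differed between the genotypes by 0.99 ± 0.27 for Tnfsf10 (adjusted p = 0.016) and 1.02 ± 0.23 for Fas (0.0030), and for Tnfsf10 the adjusted p was 0.073 without BMDM-WT replicate 3 at 0 h.

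Tnfrsf13b was the receptor called lower at 18 h. Its libraries were at 21.9, 21.7, 20 and 19.4 CPM in BMDM-WT and 13.2, 11.6, 10.3 and 12.8 CPM in BMDM-Nur77-KO, with no overlap (log2 -0.79 ± 0.09, adjusted p = 2.5e-08, and -0.83 without BMDM-Nur77-KO replicate 4). Tnfrsf21, without overlap, and Tnfrsf23, with overlap, were at -0.29 and -0.50 (adjusted p = 0.017 and 0.0066), within the limit on the fold change. For Tnfrsf13b, all BMDM-Nur77-KO libraries were also below those of BMDM-WT at 0 and 1 h, with log2 values of -0.30 and -0.27 (adjusted p = 0.012 and 0.037), within the limit. Beside the differences at 18 h stood those of the marker lists. The macrophage list was summed at 12221 to 12719 CPM in BMDM-WT but 9607 to 10924 in BMDM-Nur77-KO. Its 6 genes did not move together, with 1 called higher and 2 called lower. The dendritic cell list was at 3.71 to 4.26 and 7.58 to 9.92 CPM, with 2 of its 2 tested genes higher. Their part in these results was not tested.

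**Figure D4:**
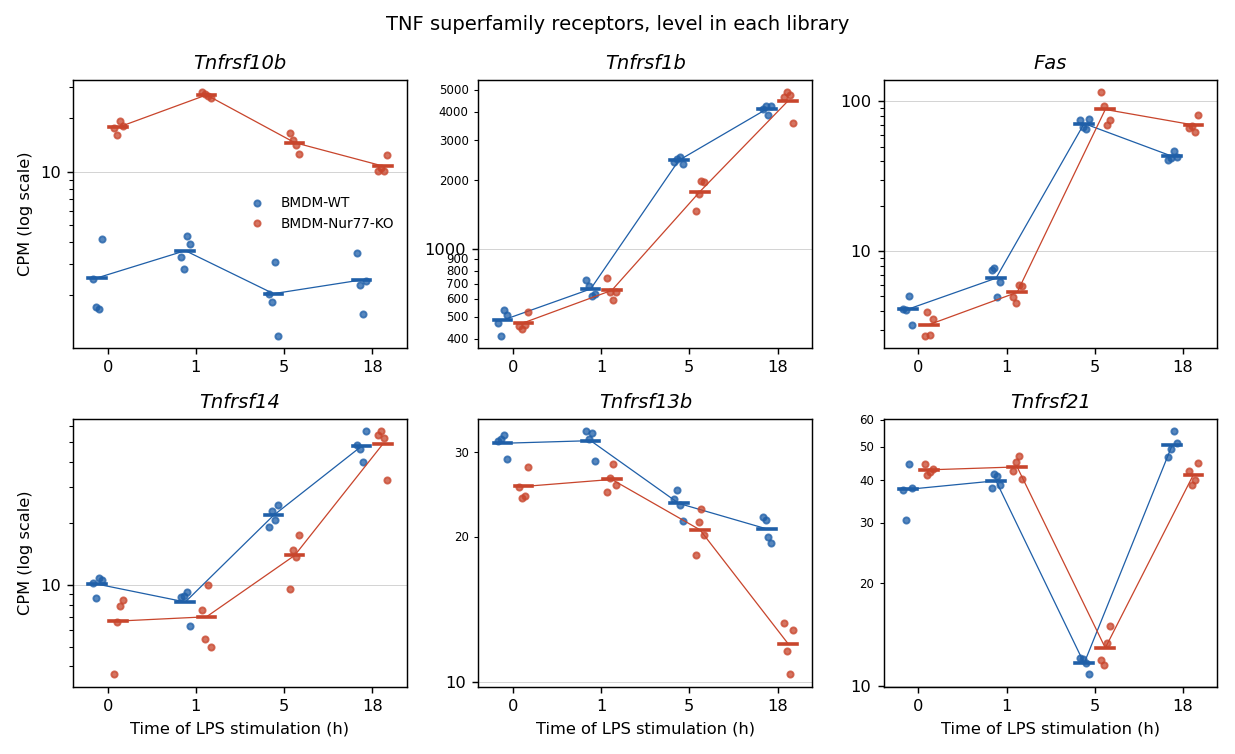
Level of 6 receptors in CPM (log axis) against the time of LPS stimulation (h), drawn as for the ligands, with 1 point per library and bars at the means. Tnfrsf10b is the receptor with the genotypes apart at every time, Fas is apart at 18 h and Tnfrsf13b at 0, 1 and 18 h. Tnfrsf14 is apart at 0 and 5 h, Tnfrsf1b at 5 h and Tnfrsf21 at 18 h. Tnfrsf21 falls at 5 h and is higher again at 18 h in both genotypes.

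At 5 h, 3 receptors were called lower, and Tnfsf12 was among the genes called higher, in BMDM-Nur77-KO. Tnfrsf9 was at 5.44, 6.34, 4.86 and 5.18 CPM in BMDM-WT and 1.52, 2.51, 2.1 and 1.96 CPM in BMDM-Nur77-KO (log2 -1.41 ± 0.26, adjusted p = 2.4e-04), and the value was -1.30 without the replicate that stood apart. Tnfrsf12a was at 5.89, 4.02, 4.64 and 4.12 against 0.65, 1.92, 2.39 and 3.13 CPM (-1.19 ± 0.31, 0.0068, and -0.92 without that replicate, its lowest). The groups did not overlap for either gene. At 18 h Tnfrsf12a was at 0.64 (adjusted p = 0.204), and at 0.94 (adjusted p = 0.030) without BMDM-Nur77-KO replicate 4, past the limit. Tnfrsf14 was at 19.3, 22.9, 20.8 and 24.6 against 9.54, 14.9, 13.7 and 17.6 CPM (-0.64 ± 0.21, 0.026). This call was lost without BMDM-Nur77-KO replicate 1 (-0.51, adjusted p = 0.110), BMDM-WT replicate 2 (0.060) or BMDM-WT replicate 4 (0.065). At 0 h, Tnfrsf14 was at 8.66 to 10.9 CPM in BMDM-WT and 3.65 to 8.47 CPM in BMDM-Nur77-KO, without overlap. It was not called at 0 h, but passed without BMDM-Nur77-KO replicate 4 at 0 h (-0.71, adjusted p = 0.047). Tnfsf12, the ligand of Tnfrsf12a, was at 43.8, 45.6, 46.2 and 39.5 against 101, 70.5, 56.7 and 59.2 CPM (0.71 ± 0.14, 4.3e-04), and without the first of these BMDM-Nur77-KO libraries it was 0.51, under the limit. For Tnfrsf12a, Tnfrsf14 and Tnfsf12 the adjusted p at 5 h was 0.099, 0.085 and 0.058 when only the libraries compared were fitted. At the same time the endothelial list was summed at 9.2 to 13.6 CPM in BMDM-Nur77-KO and 20.7 to 23.9 CPM in BMDM-WT. The dendritic cell list overlapped at 5 h, with 10.6 to 22 CPM in BMDM-Nur77-KO and 11.9 to 16.7 CPM in BMDM-WT. Of its 2 tested genes, 1 was called lower at this time. The part of both lists in these results was not tested.

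Tnfsf14 was the ligand called lower at 0 h, with 1.07, 1.25, 1.75 and 1.89 CPM in BMDM-WT and 0.731, 0.762, 0.308 and 0.24 CPM in BMDM-Nur77-KO (log2 -1.50 ± 0.37, adjusted p = 0.0059). The groups did not overlap, but the BMDM-Nur77-KO libraries held only 8, 12, 4 and 3 counts.

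Tests of the response itself, the LPS change in BMDM-Nur77-KO minus that in BMDM-WT with an adjusted p under 0.05, called 0 of the 28 genes at 1 h, with 3 at an unadjusted p under 0.05 and 0 by DESeq2 (0.0715% of all genes called). They called 2 at 5 h (3.12%), Tnfsf12 and Tnfsf14, and 8 at 18 h (9.43%), 5 higher and 3 lower (5.36% and 4.07%). Higher were Tnf, Fas, Tnfsf10, Tnfsf15 and Tnfsf18, the last by 2.63, or 4.22 without the BMDM-WT library with 4 counts at 18 h. Lower were Tnfrsf13b, Tnfrsf21 and Tnfrsf26, with differences of -0.50, -0.48 and -0.65 on the log2 scale (adjusted p = 0.0048, 0.010 and 0.024). For Tnfrsf21 the libraries at 18 h were at 46.6, 49.1, 55.6 and 51.2 CPM in BMDM-WT and 42.6, 38.6, 40 and 44.8 in BMDM-Nur77-KO, which did not overlap. For Tnfrsf26, an orphan receptor near the TRAIL decoys, they were at 13.4, 19.6, 18.2 and 12.2 against 13.4, 11.2, 10.2 and 17.5 CPM, which overlapped. The change from 5 to 18 h differed for 12 genes (13.6% of all genes), 8 higher and 4 lower (7.49% and 6.14%), and the highest was Tnfsf18 with 2.35 ± 0.60 (adjusted p = 0.0077), a value of 3.94 without the WT library with 4 counts at 18 h. Calls of these differences were lost without single libraries for several genes. For Tnfsf14 at 5 h these were replicates 3 and 4 of BMDM-WT at 0 h and at 5 h, replicates 3 and 4 of BMDM-Nur77-KO at 0 h and replicates 1 and 2 at 5 h, and with it the count at 5 h was 1 without BMDM-WT replicate 4 at 0 h or 3 at 5 h, or BMDM-Nur77-KO replicate 3 at 0 h or 2 at 5 h. For Tnfsf15 at 18 h they were replicates 2 and 4 of BMDM-WT at 0 h and 1, 2 and 4 at 18 h, and replicates 1 and 2 of BMDM-Nur77-KO at 0 h and 3 and 4 at 18 h (0.80 to 0.90). For Tnfrsf26 at 18 h they were replicate 3 of BMDM-WT at 0 h and 2 and 3 at 18 h, and replicates 2 and 3 of BMDM-Nur77-KO at 18 h (-0.59 to -0.53). In the change from 5 to 18 h they were, for Tnfrsf21, replicates 4 of both genotypes at 5 h, 3 of BMDM-WT and 2 and 3 of BMDM-Nur77-KO at 18 h. They were replicate 1 of BMDM-Nur77-KO at 18 h for Tnfrsf9 (1.11, adjusted p = 0.078), and replicate 1 of BMDM-WT at 5 h or 18 h or 2 of BMDM-Nur77-KO at 18 h for Tnfsf8. These comparisons share their libraries with the genotype comparisons and are not independent of them.

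The remaining tested genes did not pass a genotype comparison. Ltb, Lta, Tnfsf9, Tnfsf13, Tnfsfm13, Ltbr, Tnfrsf11a, Tnfrsf1a, Tnfrsf1b, Tnfrsf21, Tnfrsf22, Tnfrsf23, Tnfrsf26 and Tnfrsf8 made up these 14. TNFR2 came nearest among the abundant ones, with 2362 to 2540 CPM in BMDM-WT and 1456, 1733, 1982 and 1955 CPM in BMDM-Nur77-KO at 5 h (log2 -0.46 ± 0.10, adjusted p = 0.0015 for Tnfrsf1b), under the limit on the fold change although the groups were apart, and -0.37 without BMDM-Nur77-KO replicate 1. Tnfsf9 at 5 h was at 21.9 to 32.5 against 33.3 to 38.2 CPM (0.44 ± 0.12, 0.0083, and 0.42 without that replicate). Tnfrsf11a, the RANK receptor through which osteoclasts form, overlapped at 18 h, with 144 to 177 CPM in BMDM-WT and 126 to 186 in BMDM-Nur77-KO at 18 h (log2 -0.18, and -0.33 without BMDM-Nur77-KO replicate 4).

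Genes that act downstream of these receptors, 39 adaptors, kinases, death mediators, negative regulators and shedding factors, all passed the filter. BMDM-Nur77-KO had 0 of them higher and 2 lower at 0 h, 0 and 0 at 1 h by edgeR (with 7 at an unadjusted p under 0.05, and 0 by DESeq2), 1 and 1 at 5 h, and 7 and 0 at 18 h. Over all genes the shares higher and lower were 2.36% and 2.38%, 1.48% and 1.36%, 5.66% and 3.13%, and 5.76% and 4.17% at these times, and the list's 1 and 1 at 5 h did not exceed theirs. The count at 0 h was 1 without replicate 1 or 3 of BMDM-Nur77-KO or replicate 2 or 4 of BMDM-WT. That at 5 h was 0 without replicate 1 of BMDM-Nur77-KO, 1 without its replicate 2 or replicate 1 or 2 of BMDM-WT, and 6 without BMDM-Nur77-KO replicate 4. The 7 at 18 h were Tank, Traf5, Traf1, Tnfaip3, Cflar, Tnip3 and Tnip1. Tnfaip3, which encodes the NF-kB inhibitor A20, was at 206 ± 13.8 CPM in BMDM-WT and 361 ± 8.16 CPM in BMDM-Nur77-KO at 18 h (SD, n = 4, log2 0.81 ± 0.06 SE, adjusted p = 3.1e-12). Traf1, an adaptor of TNFR2, was at 128.7 ± 8.52 and 244 ± 43.3 CPM (0.92 ± 0.15, 1.5e-05), and Traf5 at 11.5 ± 0.811 and 22.4 ± 1.6 CPM (0.97 ± 0.10, 8.5e-09). Cflar, which encodes the caspase-8 inhibitor c-FLIP, was at 955 ± 117 and 1599 ± 258 CPM (0.74 ± 0.11, 6.7e-06). The median log2 difference of the list was 0.12 at 18 h, against -0.01 for all genes. In BMDM-WT, LPS raised 7 of the list and lowered 1 at 1 h. It raised 17 and lowered 2 at 5 h, and raised 12 and lowered 1 at 18 h. The shares of all genes were 3.44% and 1.66%, 15.9% and 17.8%, and 13.3% and 14.1%.

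Superfamily genes that the symbol rule leaves out were also read. Cd40, the receptor by which T cells activate macrophages, was at 207 ± 21 CPM in BMDM-WT and 522 ± 57 CPM in BMDM-Nur77-KO at 18 h (log2 1.33 ± 0.12, adjusted p = 8.8e-10), and at 0, 1 and 5 h it was not called. Relt was tested and not called at any time. Cd40lg, Eda, Edar, Eda2r and Ngfr were not tested, and of these Cd40lg had at most 1 count in any library.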

How the data were processed

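RNA was sequenced from 32 libraries, 4 in each of 8 groups of genotype and time. Per the study's methods and the submitters' notes, the authors prepared strand-specific libraries, aligned reads to mm10 (GRCm38) with HISAT2 2.1.0, filtered them on mapping quality and counted HOMER tags on RefSeq transcripts without normalization; CASAVA 1.8.2 is also named. Whether counting used the strand is not given in the sources used here. The deposited values were estimated counts, since 28.6% of them were not whole (all were multiples of 0.5), and were rounded before the tests. Of 42361 transcripts, 42203 were named by RefSeq and 65 by GENCODE, and 93 without a name, with 0.233 to 1.37% of the tags of a library, were left out.

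The highest transcript per gene was kept, and 11186 genes that exceeded 1 RPKM on average in any group were fitted with edgeR 4.0.16 (R 4.3.3; quasi-likelihood test, TMM scaling, 1 mean per group, all 32 libraries, two-sided, Benjamini-Hochberg adjustment over all genes). Calls needed an adjusted p under 0.05, with a log2 fold change over 0.58 between genotypes and over 1 between times. A simulation used only the 18 h libraries, a fixed spread for all genes, changed genes above a minimum count and the adjusted p alone. In its 11186 genes, 32.4%, 93.9% and 100% of changes of 1.5, 2 and 4-fold were recovered, and 5.06% of the calls were false. It does not give the recovery of the fit of all 32 libraries, of calls with a fold-change limit or of genes at a few counts. Values per library are given for Tnf, for genes called between genotypes and for the 3 largest changes each way at each time in BMDM-WT. The genes and lists were chosen with earlier results of these data known. Tnfsf13os was not analysed here. Alternatives were DESeq2 1.42.0 and its size factors, another filter, summed transcripts, no limit on the fold change, only the libraries compared, a replicate block and leaving out each library. Tables were made with Python 3.11.15, pandas 2.3.3 and numpy 2.4.6.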

Additional observations from a re-analysis of the deposited data

Results flagged for a closer look

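In 18 of 224 groups of 4 libraries (8.04%), 1 library lay far from the other 3 by Dixon's criterion, and chance alone gives about 1 in 20. In BMDM-Nur77-KO at 18 h, replicate 4 was the lowest for Tnf (336 CPM), Tnfrsf1a (150.4 CPM) and Tnfrsf1b (3571 CPM), and replicate 3 for Tnfsf13 (8.11 CPM). In BMDM-Nur77-KO at 0 h, replicate 1 was the lowest for Tnf (26.5 CPM) and the highest for Tnfrsf9 (0.0914 CPM, 1 count against 0), and replicate 3 the highest for Tnfsf10 (2.15 CPM). At 1 h, Tnfsf14 was highest in replicate 1 of BMDM-Nur77-KO (5.84 CPM).

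In BMDM-WT at 0 h, replicate 3 was the highest for Ltb (0.532 CPM) and Tnfsf18 (0.911 CPM), replicate 4 the highest for Ltbr (47.8 CPM) and replicate 2 the lowest for Tnfrsf23 (11.1 CPM). At 1 h, replicate 4 was the lowest for Ltbr (21.5 CPM), Tnfsf13 (26.7 CPM) and Tnfsfm13 (50.8 CPM), and replicate 2 for Tnfrsf23 (10.6 CPM). Tnfrsf8 was highest in replicate 1 at 5 h (20.8 CPM), and Tnfsf12 lowest in replicate 3 at 18 h (32.1 CPM).

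The response to LPS differed between the genotypes by edgeR's test of the difference itself. At 5 h the log2 differences, BMDM-Nur77-KO minus BMDM-WT, were 0.80 for Tnfsf12 and 2.31 for Tnfsf14. At 18 h they were 1.02 for Fas, 1.04 for Tnf, 0.99 for Tnfsf10, 0.92 for Tnfsf15, 2.63 for Tnfsf18 (4.22 without BMDM-WT replicate 3 at 18 h), -0.50 for Tnfrsf13b, -0.48 for Tnfrsf21 and -0.65 for Tnfrsf26. For the change from 5 to 18 h they were 1.05 for Tnf, 1.07 for Tnfsf10, 1.17 for Tnfsf15, 2.35 for Tnfsf18, 0.82 for Tnfsf8, 1.83 for Tnfrsf12a, 0.57 for Tnfrsf1b and 1.39 for Tnfrsf9. They were -0.61 for Tnfrsf13b, -0.44 for Tnfrsf21, -0.71 for Tnfrsf23 and -0.76 for Tnfsf12.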

How the results depend on the processing

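Of 134 called values of the 18 genes given by library, 113 kept their call under every alternative, 10 lost it under a setting other than leaving out a library, 17 lost it without a library, and 0 changed direction. All 10 were lost when only the libraries compared were fitted. That fit estimates the spread from these libraries alone, and the reason for the losses was not tested. That setting gave 5 of the superfamily genes called between genotypes at 5 h instead of 8, 0 instead of 2 for the difference in response at 5 h and 1 instead of 0 at 1 h, and for the signalling list 1 instead of 2 at 0 h and 0 instead of 2 at 5 h. DESeq2 and DESeq2's size factors each gave 1 for the signalling list at 0 h. Without the limit on the fold change, 15 superfamily genes passed between genotypes at 5 h and 20 instead of 12 from 5 to 18 h in BMDM-WT, and of the signalling list 4, 3, 9 and 13 passed between genotypes at 0, 1, 5 and 18 h and 16, 30 and 28 after LPS in BMDM-WT at 1, 5 and 18 h. With single libraries left out, the superfamily genes called ranged from 5 to 6, 3 to 4, 6 to 9 and 9 to 10 between genotypes at the 4 times. For the difference in response they ranged from 1 to 3 at 5 h, 6 to 9 at 18 h and 10 to 15 for the change between them, and the signalling list from 1 to 2 at 0 h, 0 to 6 at 5 h and 6 to 8 at 18 h. Genes at a few counts, such as Tnfsf14, Tnfrsf9 and Lta, limit what this depth can show.

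Same-numbered libraries showed no common correlation over the groups, which cannot show whether they were paired. Over 112 same-numbered pairs the correlation of deviations was -0.704 to 0.466 (median -0.0227), with 29 above 0.1. A fit with the replicate number as a block gave 14 instead of 15 superfamily genes from 5 to 18 h in BMDM-Nur77-KO, and the same counts as without it in the other comparisons, among them 5, 4, 8 and 9 between genotypes.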
